A study of Mus musculus with 6 samples.

Results

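Kcnip4 encodes KChIP4, a potassium channel interacting protein, and its gene body held 23 of the 34518 noncoding features listed for left atria that overexpress the GATA cofactor FOG2. The features were chosen by position and by their measured change: all rows overlapping the GENCODE M21 body of Kcnip4 on either strand, which takes in the interval chr5:48779849-48896129 that earlier work on these data had bounded by features lower with FOG2 overexpression. Of the 23 features, 19 lay in that interval and 4 in the rest of the gene body. Left atria were dissected from adults of the outbred CD1 stock, and the RNA was sequenced as 2 groups of 3 libraries. The FOG2_OE group has the genotype FOG2 Overexpression, and the WT group is wild type. The labels say that hearts were taken from DTG and NTG animals, which are not spelled out there, after 1 week without doxycycline, and they do not say which promoter or cell type drives the FOG2 overexpression or whether animals were pooled. Ribosomal and polyadenylated RNA were removed before the libraries were made, so that what was counted is mostly RNA without a poly(A) tail.

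KChIP proteins belong to the neuronal calcium sensor family, small proteins that bind calcium through EF hands. They attach to the cytoplasmic end of Kv4 channels (Kcnd1, Kcnd2 and Kcnd3), which carry a fast transient outward potassium current, and change how many channels reach the surface and how quickly these inactivate. KChIP4 is known mainly from brain, and Kcnip2 encodes the KChIP usually described in rodent heart. Kcnip4 uses alternative first exons, so that its isoforms begin with different residues, and an isoform with a hydrophobic start is known to slow channel inactivation.

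Kcnip4 lies on the minus strand of chromosome 5 from 48389502 to 49524907 (mm10), a body of 1135 kb with 8 annotated transcripts. All 23 features were listed on the plus strand, opposite to the gene, and 0 of them overlapped a Kcnip4 exon. Because the TruSeq RNA v2 kit of the labels keeps no strand, antisense RNA and reads from introns of Kcnip4 itself cannot be told apart. The interval covered 10.2% of the gene body, 116 kb, and its 19 features filled 36.6 kb of it.

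The base sequence of the features was read where GENCODE transcripts hold it, since no genome sequence was used here. There were 5 genes of the class TEC, putative transcripts still awaiting experimental evidence, inside the interval, all annotated on the minus strand. Gm43319 lay wholly inside MSTRG.64115, Gm42919 for 91.8% of its length inside the same feature, Gm43830 for 25.6% inside MSTRG.64114 and Gm43321 for 22.6% inside MSTRG.64122, and Gm43320 touched no listed feature. The central 270 bases of 3 of these overlaps are shown to give the letters of the transcribed stretch, written 5′ to 3′ on the strand listed for the features (mm10, GENCODE M21 transcripts). Capitals mark matches to the GATA motif on either strand.
MSTRG.64114 at Gm43830, chr5:48791695-48791964, + strand: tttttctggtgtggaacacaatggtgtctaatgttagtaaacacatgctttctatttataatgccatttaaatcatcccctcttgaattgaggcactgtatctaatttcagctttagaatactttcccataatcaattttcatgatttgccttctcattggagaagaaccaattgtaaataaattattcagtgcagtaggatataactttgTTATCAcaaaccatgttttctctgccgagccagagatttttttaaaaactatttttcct
MSTRG.64115 at Gm43319, chr5:48800010-48800279, + strand: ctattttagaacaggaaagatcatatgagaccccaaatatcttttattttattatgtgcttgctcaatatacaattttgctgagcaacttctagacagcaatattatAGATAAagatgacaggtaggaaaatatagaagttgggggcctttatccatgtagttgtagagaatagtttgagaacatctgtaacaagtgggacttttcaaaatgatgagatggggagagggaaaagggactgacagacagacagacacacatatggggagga
MSTRG.64122 at Gm43321, chr5:48820455-48820724, + strand: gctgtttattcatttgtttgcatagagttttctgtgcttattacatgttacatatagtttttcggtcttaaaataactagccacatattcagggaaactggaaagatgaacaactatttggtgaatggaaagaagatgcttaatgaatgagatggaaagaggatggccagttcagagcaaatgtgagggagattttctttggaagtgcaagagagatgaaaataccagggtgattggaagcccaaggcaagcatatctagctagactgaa
The motif was searched as NGATAN with A or T as its first and A or G as its last letter, on both strands, because FOG2 acts through GATA factors, and the T-box motif as AGGTGT on both strands, because the study concerns TBX5. A GATA match was present in 2 of the 4 windows, the fourth being the overlap with Gm42919, and a T-box match in 0 of the 4. Of the central 270 bases of 3212 TEC transcripts across the genome, 43.2% held a GATA match and 14.0% a T-box match, and of 32851 RefSeq promoters (GRCm38) cut to the same length, 27.4% and 12.4% did. The windows were rich in A and T: G and C made up 32.2% to 37.8% of their bases, against a median of 42.6% in the TEC windows. A match describes the letters only, and 0 matches say nothing of the factor.

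A single annotated transcript of Kcnip4, the protein-coding Kcnip4-208, begins in the interval. Its first exon runs from 48889366 to 48889557, in the gap between MSTRG.64132 and MSTRG.64136, 28.1 kb from the end of MSTRG.64132 and 3.93 kb from MSTRG.64136, which lies upstream of the transcript start. The coding parts of the first exons are given to show how the start in the interval differs from the others, 5′ to 3′ in the direction of the gene, with the start codon in capitals (mm10, GENCODE M21).
Kcnip4-201 and Kcnip4-207, chr5:49524641-49524701, - strand: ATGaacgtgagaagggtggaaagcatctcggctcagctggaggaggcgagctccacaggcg
Kcnip4-204, chr5:48599423-48599534, - strand: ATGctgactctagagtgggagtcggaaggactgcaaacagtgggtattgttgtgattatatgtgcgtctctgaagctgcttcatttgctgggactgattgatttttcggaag
Kcnip4-206, chr5:49285253-49285340, - strand: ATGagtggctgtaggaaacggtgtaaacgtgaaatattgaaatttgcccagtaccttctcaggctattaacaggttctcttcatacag
Kcnip4-208, chr5:48889366-48889465, - strand: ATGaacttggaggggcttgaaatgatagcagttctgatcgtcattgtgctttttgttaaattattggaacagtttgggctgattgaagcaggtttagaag
Kcnip4-201 and Kcnip4-207 share their coding start at the far upstream end of the gene, and each other start has a sequence of its own. No feature overlapped any of these exons, so that the values below are levels of transcription around the exon of Kcnip4-208 and do not measure any isoform.

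Levels are given as fitted CPM, the counts expected under the authors' model scaled to the effective library, because the deposited sample columns held fitted values and not counts. Replicates of a group therefore differ only by library size, and no replicate spread can be read from them. The effective library sizes, solved from the deposited values, were 72448250 to 84888504 in FOG2_OE and 71164892 to 82233279 in WT. The standard error (SE) beside a deposited log2 ratio was solved from the likelihood ratio of that feature. A feature of Zfpm2, the gene of FOG2, MSTRG.29831, had fitted values of 33173, 30172 and 35352 in the FOG2_OE libraries and 34.4, 37.9 and 39.8 in the WT libraries, higher in the direction of the labels. The listed features together held 5.25% of the library in FOG2_OE and 4.43% in WT.

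The interval inside Kcnip4 was nearly silent in FOG2_OE. Its 19 features summed to 10.8, 9.82 and 11.5 fitted counts in the FOG2_OE libraries, against 1757, 1936 and 2031 in the WT libraries. That is a summed level of 0.136 CPM in FOG2_OE, against 24.7 CPM in WT, a log2 ratio of -7.51, or 182-fold lower (exact 95% interval 129 to 268, for counting error only). Since 12 of the 19 features were at 0 in FOG2_OE, the ratio depends on how scarce values are treated: with members at or under 3 counts over the FOG2_OE group set to that floor, the summed level was 81.1-fold lower (log2 ratio -6.34). At an adjusted p under 0.05 the authors' deposited table called all 19 lower, beside 4.65% of all features lower and 1.16% higher. That count was fixed by the choice of the interval and is a description, with nothing read from it. Other call rules were applied to the same table. With the median ratio centred at 1 they called 3.47% of all features lower and 1.62% higher, over features of at least 5 fitted counts 5.48% lower and 1.35% higher, and at the stricter limit of 0.01 2.69% lower and 0.608% higher. An F reference with 10 residual degrees of freedom called 1.07% lower and 0.203% higher and kept 12 of the 19 interval calls, and with 4 it called 0% in either direction and kept 0. The deposited adjusted p ran from 7.9e-41 for MSTRG.64113 to 0.0101 for MSTRG.64128, and the smallest value among the 4 other features of the gene was 0.230 for MSTRG.64109, so that no feature lay near the limit of 0.05. In the authors' deposited table the log2 fold changes ran from -7.98 to -5.37 with a median of -6.62, beside a median of -0.21 over all features. In a bulk library, fewer cells that transcribe the interval and less RNA per cell cannot be told apart.

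**Figure D1:**
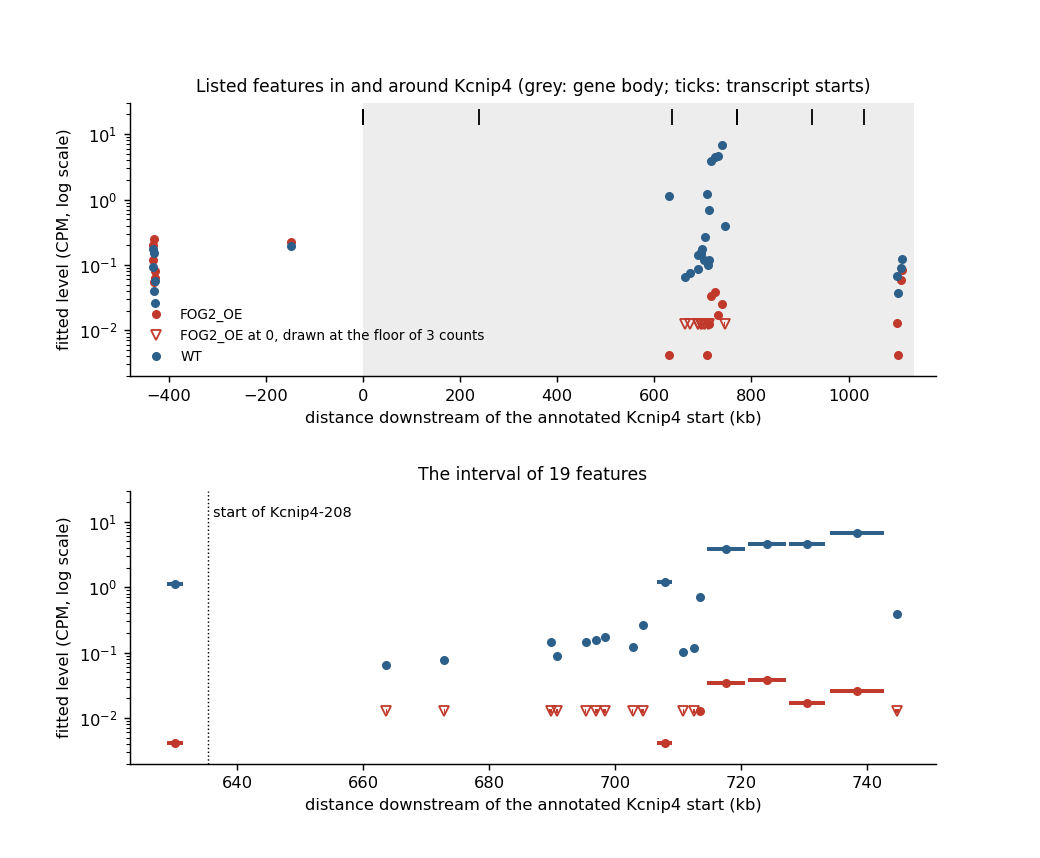
Fitted level (CPM, log axis) of listed features against distance downstream of the annotated Kcnip4 start in kb, for the gene and its flanks (top) and for the interval (bottom), with FOG2_OE in red and WT in blue; open triangles mark features at 0 in FOG2_OE, drawn at the floor of 3 counts over the group (0.0127 CPM). The WT levels of the interval lie above the FOG2_OE levels at all 19 features, while the levels of the features upstream of the gene lie close together.

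Most of the transcription in WT came from a run of 5 adjoining long features, MSTRG.64113 to MSTRG.64117. The run spanned 29.7 kb, of which 92.7% was covered, with gaps of 370 to 850 bases between neighbours. Its summed level was 0.127 CPM in FOG2_OE, against 20.5 CPM in WT, 161-fold lower, and it held 83.1% of the WT level of the interval. MSTRG.64113 (48782298 to 48790843, 8546 bases) had fitted values of 2.02, 1.84 and 2.16 in the FOG2_OE libraries and 485, 535 and 561 in the WT libraries. Its level was 0.0254 CPM in FOG2_OE, against 6.82 CPM in WT, above 98.3% of all listed features in WT. The authors' deposited table gave MSTRG.64113 a log2 ratio of -7.98 (SE 0.69).

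MSTRG.64114 (48791694 to 48797395), which overlaps Gm43830, had 1.36, 1.24 and 1.45 fitted counts in the FOG2_OE libraries and 331, 364 and 382 in the WT libraries. MSTRG.64115 (48797775 to 48803906), which takes in Gm43319, had 3.04, 2.77 and 3.24 in the FOG2_OE libraries and 321, 353 and 371 in the WT libraries. MSTRG.64116 (48804277 to 48810374) had 2.69, 2.45 and 2.87 in the FOG2_OE libraries and 273, 301 and 316 in the WT libraries. These 3 features had a like level per kb in WT, and every FOG2_OE value lay under 4 fitted counts. In the authors' deposited table their log2 fold changes were -7.96 (SE 0.83) for MSTRG.64114, -6.83 (SE 0.61) for MSTRG.64115 and -6.76 (SE 0.66) for MSTRG.64116. MSTRG.64117 (48810940 to 48812029), the short last piece of the run, had 1.01, 0.915 and 1.07 fitted counts in the FOG2_OE libraries and 50.0, 55.0 and 57.7 in the WT libraries. With 3 fitted reads over the FOG2_OE group its level was 55.6-fold lower, with an exact 95% counting interval of 18.7 to 272, while the authors' deposited table gave a log2 ratio of -5.63 (SE 0.93).

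Beyond the run, features covered less of the sequence, 11.6% of the 49.0 kb from MSTRG.64118 to MSTRG.64132. MSTRG.64121 (48815903 to 48818315, 2413 bases) had 0.335, 0.305 and 0.357 fitted counts in the FOG2_OE libraries and 85.1, 93.7 and 98.3 in the WT libraries. MSTRG.64136 (48893485 to 48896129, 2645 bases), upstream of the start of Kcnip4-208, had 0.335, 0.305 and 0.357 in the FOG2_OE libraries and 81.0, 89.2 and 93.6 in the WT libraries. Each of these amounts to 1 fitted read over the FOG2_OE group, so that the ratios are wide. The ratio was 284-fold lower for MSTRG.64121 (exact 95% counting interval 50.4 to 11227) and 270-fold lower for MSTRG.64136 (48.0 to 10702). MSTRG.64136 stands alone at the upstream end of the interval, with 32.2 kb without a listed feature between it and MSTRG.64132.

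The remaining 12 features of the interval were at 0 in all 3 FOG2_OE libraries, and no feature of the interval was at 0 in WT. Of all 34518 features, 370 (1.07%) were at 0 in FOG2_OE. Against a floor of 3 counts over the FOG2_OE group, the level of these 12 was at least 5.10-fold to at least 31.1-fold lower, and the bound follows how much RNA the WT libraries held. MSTRG.64112, the feature of the interval nearest to the 3′ end of Kcnip4, had 28.0, 30.8 and 32.3 fitted counts in the WT libraries, which gives at least 31.1-fold lower. MSTRG.64122, at Gm43321, had 18.8, 20.7 and 21.7 in the WT libraries, at least 20.9-fold lower. MSTRG.64124, MSTRG.64125 and MSTRG.64126 had 0.175, 0.156 and 0.147 CPM in WT and were at least 13.9-fold, 12.3-fold and 11.6-fold lower. The other 7 (MSTRG.64118, MSTRG.64119, MSTRG.64123, MSTRG.64128, MSTRG.64129, MSTRG.64131 and MSTRG.64132) were 131 to 543 bases long and had 0.0646 to 0.143 CPM in WT. The deposited log2 fold changes of features at 0 depend on the prior count of the model and are no bounds. With these 12 set at their bounds, the median log2 fold change of the interval is -3.79 in place of -6.62.

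**Figure D2:**
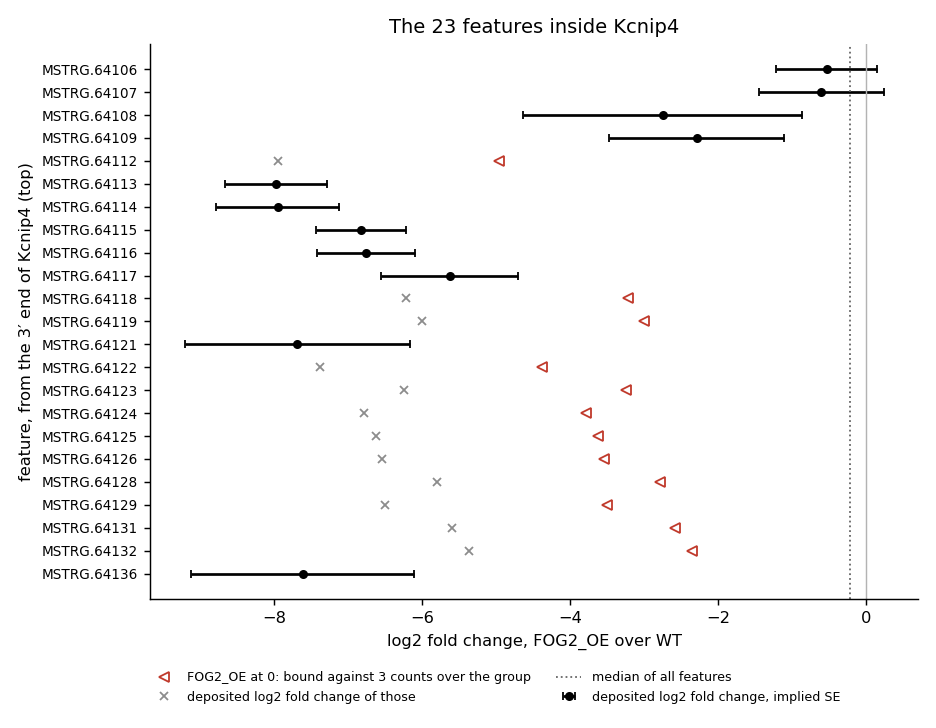
Log2 fold change of FOG2_OE over WT for the 23 features inside Kcnip4, one row per feature from the 3′ end of the gene down; black points are deposited values with the implied SE as bars, red triangles are bounds for features at 0 in FOG2_OE and grey crosses the deposited values of those. The 19 interval features lie at or below -2.35 on either reading. Of the 4 other features, MSTRG.64106 and MSTRG.64107 lie near the median of all features (-0.21). MSTRG.64108 (-2.75) and MSTRG.64109 (-2.29), which were not called, lie close to the highest of the interval bounds.

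Level per kb was taken over the listed features only, and these were unevenly placed. They covered 92.7% of the run of 5 long features but 11.6% of the 49.0 kb from MSTRG.64118 to MSTRG.64132. The run held 83.1% of the WT level of the interval. The WT level per kb ran from 0.264 CPM per kb at MSTRG.64129 to 0.815 CPM per kb at MSTRG.64114, with a median of 0.503 over the 19 features. In FOG2_OE the level per kb of covered sequence was 0.0037 CPM per kb over the whole interval, against 0.674 CPM per kb in WT. The WT level per kb was lower towards the upstream end of the gene, with a Spearman correlation with genome position of -0.72 and a Pearson correlation of -0.57 over the 19 features. These features share the same libraries and their outlines came from one assembly, and the correlation is given as a description. Length varied much more than level per kb, since the features ran from 131 to 8546 bases.

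**Figure D3:**
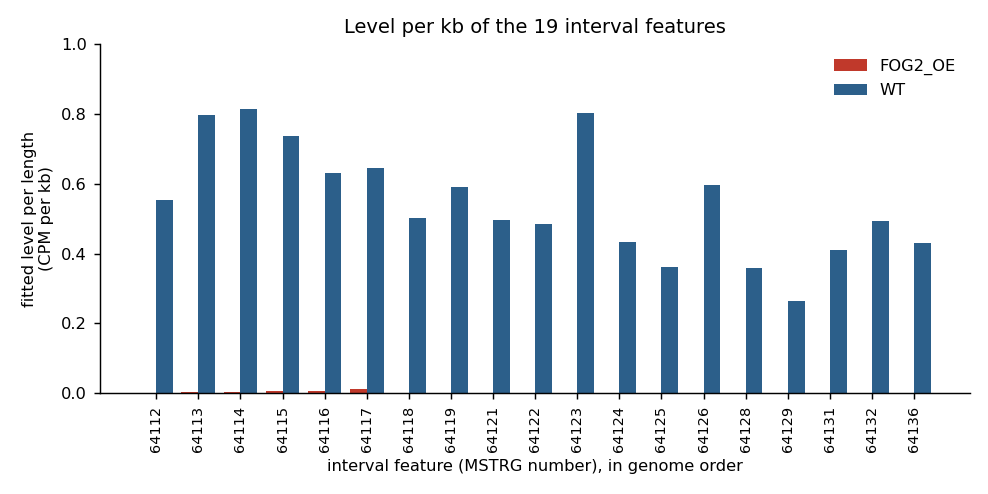
Fitted level per kb of feature length (CPM per kb) for the 19 interval features in genome order, FOG2_OE in red and WT in blue; bars show 1 fitted value per group and carry no replicate error. WT bars lie between 0.264 and 0.815 CPM per kb, and the highest FOG2_OE bar, at MSTRG.64117, is 0.0116 CPM per kb.

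The biological coefficient of variation solved from the deposited likelihood ratio was 30.5% to 35.5% in the run of 5 long features and had a median of 45.6% over the interval, beside 49.4% over all features. It was highest, 80.9%, at MSTRG.64128, which had 20.2 fitted reads over the WT group.

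The rest of the gene body held 4 short features, all near the 3′ end of Kcnip4 and 355 kb from the interval. None of the 4 passed the test, beside 4.65% of all features called lower and 1.16% higher. An unadjusted p under 0.05 was found at 1 of them, beside 17.0% of all features. The summed level of the 4 was 0.160 CPM in FOG2_OE, against 0.319 CPM in WT. MSTRG.64106 (48414700 to 48414969) had 0.0842 CPM in FOG2_OE, against 0.123 CPM in WT, and its log2 ratio was -0.53 (SE 0.68) with adjusted p = 0.754 per the authors' deposited table. MSTRG.64107 (48417211 to 48417423) had 0.0584 CPM in FOG2_OE, against 0.0898 CPM in WT, and its log2 ratio was -0.61 (SE 0.84) with adjusted p = 0.777 per the authors' deposited table. Both estimates are smaller than their errors. MSTRG.64108 (48423370 to 48423475) had 0.00421 CPM in FOG2_OE, against 0.0376 CPM in WT, and its log2 ratio was -2.75 (SE 1.88) with adjusted p = 0.340 per the authors' deposited table. MSTRG.64109 (48424407 to 48424580) had 0.0128 CPM in FOG2_OE, against 0.0687 CPM in WT, and its log2 ratio was -2.29 (SE 1.18) with adjusted p = 0.230 per the authors' deposited table. These last 2 held 1 and 3 fitted reads over the FOG2_OE group, where they were 8.92-fold lower (exact 95% counting interval 1.28 to 403) and 5.37-fold lower (1.56 to 29.2). The intervals cover counting error only, and with the scatter that the model assigns to them the deposited test did not call either. The 4 features begin 405 bases past the annotated end of 5730480H06Rik, a gene on the plus strand that ends inside the Kcnip4 body, on the strand listed for them. Whether the interval and the rest of the gene differ in their change was not tested.

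Outside the interval, listed transcription was thin over a long stretch. The 629 kb from the interval to the annotated start of Kcnip4 held no listed feature, and the nearest one upstream, MSTRG.64015, lay 778 kb from the interval. MSTRG.64015 had 0.220 CPM in FOG2_OE, against 0.194 CPM in WT (log2 ratio 0.18, SE 0.53 and adjusted p = 0.912 per the authors' deposited table). Within 1000 kb of the gene there were 7 features upstream and 0 past the 3′ end. None of the 7 was called, beside 4.65% lower and 1.16% higher over all features, so that 0 among 7 lies near those shares. Of the 7, 0 had an unadjusted p under 0.05, beside 17.0% of all features. Their deposited log2 ratios lay between 0.18 and 1.19 (the authors' deposited table), with a summed level of 0.985 CPM in FOG2_OE, against 0.730 CPM in WT. Of 6 protein-coding neighbours (Pacrgl, Slit2, Adgra3, Gba3, Ppargc1a and Dhx15), only Dhx15, an RNA helicase gene, had linked features, by the rule given for the gene lists. Its 12 features lay between 52135185 and 52240110 on chromosome 5, beyond the flanks of 1000 kb, and 1 of them overlapped Dhx15. None of the 12 was called, beside 4.65% lower and 1.16% higher over all features. Of the 12, 2 had an unadjusted p under 0.05 in the higher direction (17.0% of all features had one in either direction). The median log2 fold change of the 12 was 0.56.

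In the channel complex that KChIP proteins join, no listed feature was called in either direction. A feature was linked to a gene where it overlapped the gene body or, outside all coding genes, where the start of that gene was the nearest coding one within 100 kb. Of 15 genes of the Kv4 complex other than Kcnip4, 4 had listed features, 23 in all. Of these 0 were called, beside 4.65% lower and 1.16% higher over all features, so that 0 among 23 lies near those shares. An unadjusted p under 0.05 was found at 5 of them, all lower, beside 17.0% of all features in either direction. These 5 were MSTRG.68462 of Kcnd2 and MSTRG.55073, MSTRG.55076, MSTRG.55078 and MSTRG.55079 of Kcnd3. Their median log2 fold change was 0.20, beside -0.21 over all features, and their summed level was 9.33 CPM in FOG2_OE, against 8.47 CPM in WT. Both values of the list mostly reflect Kcnab1, and the summed levels of Kcnd2 and Kcnd3 were lower in FOG2_OE. Kcnd3, the Kv4.3 subunit, had 7 features with a median log2 fold change of -1.56 and a summed level of 0.284 CPM in FOG2_OE, against 0.781 CPM in WT. Kcnab1, a beta subunit of potassium channels, had 13 features with a median of 0.79. Its feature MSTRG.53003 held most of the summed level of the list, at 7.18 CPM in FOG2_OE, against 6.27 CPM in WT. Kcnd2, the Kv4.2 subunit, had a summed level of 0.230 CPM in FOG2_OE, against 0.378 CPM in WT. Its 2 features were at -0.46 and -3.54. The second, MSTRG.68462, held 1 fitted read over the FOG2_OE group (15.6-fold lower, exact 95% counting interval 2.36 to 646). Kcnip1, another KChIP gene, had a single long feature, at 0.244 CPM in FOG2_OE, against 0.109 CPM in WT (log2 ratio 1.15 and adjusted p = 0.546 per the authors' deposited table). Kcnip2, Kcnip3, Dpp6, Dpp10 and all 5 Kcne genes listed had no linked feature, and neither had Kcnd1 or Kcnab2.

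Other cardiac potassium channel genes did include features that fell. Of 69 features linked to 12 of 17 such genes, 16 were lower and 0 higher, beside 4.65% lower and 1.16% higher over all features, with a median log2 fold change of -0.41. With the F reference of 10 residual degrees of freedom 6 of the 69 were lower. These were MSTRG.46302, MSTRG.46334 and MSTRG.46340 of Kcnj3 and MSTRG.47801, MSTRG.47803 and MSTRG.47805 beside Kcna4. All other calls of the list were lost, including those at MSTRG.63147 of Kcnh2 and MSTRG.13655 of Kcnj12 (adjusted p = 0.163 and 0.199). Of the lower features, 9 belonged to Kcnj3, a subunit of the acetylcholine-activated potassium channel, 5 lay 24.8 to 91.6 kb from the start of Kcna4, a channel of the transient outward current, and Kcnh2 and Kcnj12 had 1 each. The lower features of Kcnj3 were MSTRG.46301 to MSTRG.46304, 6.98 to 11.6 kb from its start, and MSTRG.46332, MSTRG.46334, MSTRG.46335, MSTRG.46338 and MSTRG.46340 inside the gene, with log2 ratios from -3.71 to -1.77 per the authors' deposited table. The lowest of these, MSTRG.46332, held 2 fitted reads over the FOG2_OE group (15.3-fold lower, exact 95% counting interval 3.89 to 132). The Kcnj3 features had a median log2 fold change of -2.21 over all 12 and a summed level of 3.29 CPM in FOG2_OE, against 15.5 CPM in WT. Beside Kcna4 the lower features were MSTRG.47781, MSTRG.47800, MSTRG.47801, MSTRG.47803 and MSTRG.47805, with log2 ratios from -2.45 to -1.84 per the authors' deposited table. Those beside Kcna4 had a median of -2.03 over all 6, with 36.5 CPM in FOG2_OE, against 139 CPM in WT. The log2 ratio was -2.42 (SE 0.73) at MSTRG.63147 near Kcnh2 and -3.27 (SE 1.24) at MSTRG.13655 near Kcnj12, per the authors' deposited table, the second with 2 fitted reads over the FOG2_OE group (11.2-fold lower, exact 95% counting interval 2.76 to 98.7). Kcna5, with 22 features, had a median of 0.85, Kcnj11, Kcnj5 and Kcnk3, with 3 each, had medians of -0.22, -0.83 and 0.15, Kcnh2, with 9, had -1.46 and Kcnj12, with 4, had -1.42. The lists were written with earlier results of these data known.

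Among relatives of KChIP4 in the neuronal calcium sensor family, 3 of 9 genes had 6 features. Of these 1 was called higher and 0 lower, beside 1.16% higher and 4.65% lower over all features. MSTRG.45582, 458 bases from the start of Ncs1, which encodes neuronal calcium sensor 1, was higher, at 0.183 CPM in FOG2_OE, against 0.0128 CPM in WT (log2 ratio 3.68, SE 1.02 and adjusted p = 8.8e-04 per the authors' deposited table). That WT level is 3 fitted reads over the group, and the ratio was 14.3-fold higher (exact 95% counting interval 4.49 to 70.6). The call was lost with the F reference of 10 residual degrees of freedom (adjusted p = 0.0823). The 3 features of Ncald, neurocalcin delta, had a median log2 fold change of 1.74 and did not pass the test, and neither did the single feature of Guca1b or the second of Ncs1. KChIP proteins also bind presenilins, the catalytic part of gamma-secretase. Of 7 genes of that complex, Aph1b and Aph1c had 6 features. Of these 0 were called, beside 4.65% lower and 1.16% higher over all features. An unadjusted p under 0.05 was found at 0 of them, beside 17.0% of all features, and the 5 of Aph1c had a median log2 fold change of 0.90.

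**Figure D4:**
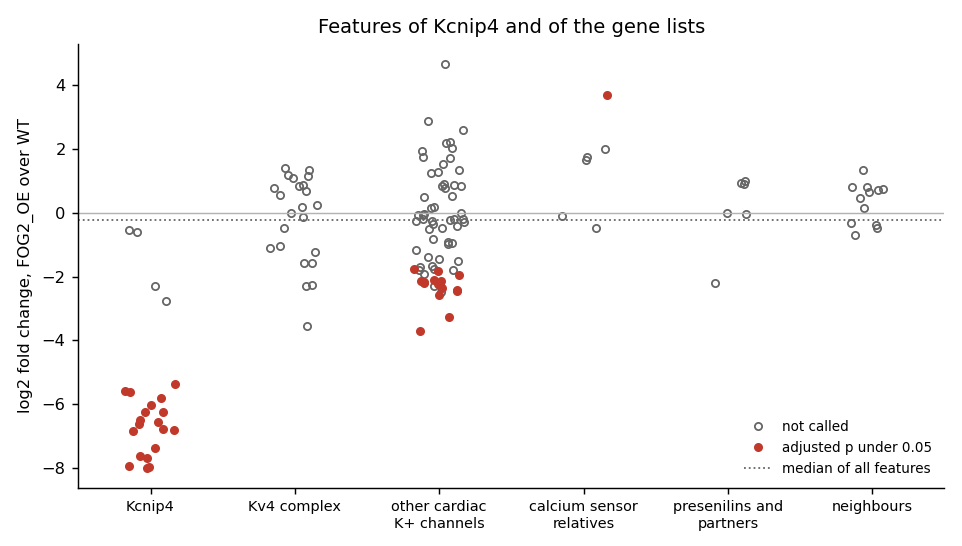
Log2 fold change of FOG2_OE over WT in the deposited table for the 23 features of Kcnip4 and for features linked to the genes of 5 lists; filled red points have an adjusted p under 0.05, the dotted line is the median of all features (-0.21), and points are spread sideways only to be seen. Red points in the Kcnip4 column lie between -7.98 and -5.37, and the Kv4 complex column has none.

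The markers of the tissue and of other cell types were followed beside these values, as features linked to their genes. Of 24 features at 6 of 7 atrial cardiomyocyte genes, 7 were lower and 0 higher, beside 4.65% lower and 1.16% higher over all features, with a summed level of 13.1 CPM in FOG2_OE, against 27.7 CPM in WT. The count was 4 on the centred scale and 2 with the F reference of 10 residual degrees of freedom. The 7 were linked to Myl7, the atrial myosin light chain gene (3), Sln, the sarcolipin gene (3), and Dkk3 (1). Of the 7, 3 overlapped their gene, and the rest lay outside it and were linked by distance. Most of the fall in the sum was at Myl7 (2.19 CPM in FOG2_OE, against 10.4 CPM in WT) and Sln (5.64 against 12.6 CPM). Myl4, Nppa and Tbx5 had 0 called features. Their summed levels were not lower, at 2.94, 1.30 and 0.987 CPM in FOG2_OE, against 2.60, 1.11 and 0.885 CPM in WT. Of 22 features at 3 of 5 pacemaker genes, 8 were higher and 0 lower, beside 1.16% higher and 4.65% lower over all features. The count of higher features was 9 on the centred scale and 4 with that F reference. Of the 8, 6 were linked to Hcn4, the pacemaker current channel, and 2 to Cpne5, and 3 overlapped their gene. Tbx3 had 2 features, of which 0 were called, with 0.570 CPM in FOG2_OE, against 0.762 CPM in WT. Shox2 and Isl1 had no linked feature. The pacemaker list summed to 8.89 CPM in FOG2_OE, against 2.06 CPM in WT. Schwann cell genes had 4 features with 1.14 CPM in FOG2_OE, against 1.23 CPM in WT, of which 0 were called and 0 had an unadjusted p under 0.05. Fibroblast genes had 15 features with 4.87 CPM in FOG2_OE, against 5.33 CPM in WT, and endothelial genes had 12 with 1.50 CPM in FOG2_OE, against 1.16 CPM in WT. Epicardial genes had 3 features with 6.33 CPM in FOG2_OE, against 5.87 CPM in WT, the immune gene Cd68 had 1 with 0.0470 CPM in FOG2_OE, against 0.0925 CPM in WT, and the ventricular gene Myl3 had 7 with 0.871 CPM in FOG2_OE, against 0.967 CPM in WT. In these 5 lists 0 features were called, and 1 fibroblast and 1 endothelial feature had an unadjusted p under 0.05. Acta2, a smooth muscle actin gene, had the only called feature of its list, MSTRG.43342, higher at 0.221 CPM in FOG2_OE, against 0.00433 CPM in WT, which is 1 fitted read over the WT group (51.1-fold higher, exact 95% counting interval 8.73 to 2047). The part of any of these cell types in the lower level at Kcnip4 was not tested.

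Kcnip4 was chosen for its low ratio, so that its place among gene bodies restates the choice and is given as a description. Among 890 genes whose bodies held at least 5 listed features, Kcnip4 had the lowest log2 ratio of summed levels, -6.41 over its 23 features (0.295 CPM in FOG2_OE, against 25.0 CPM in WT), and the median over these genes was -0.22. The genes with the most similar log2 ratio are, since Kcnip4 is the lowest, by construction the 5 next lowest, and none of them lies on its chromosome. Over all listed features, 4.65% were called lower, which stands beside each count given here. Gm20388, an annotation of 4435 kb on chromosome 8 that runs across many other genes, had -5.48 over 73 features, of which 13 were lower. The median log2 fold change of these 73 was -0.51, against -6.50 over the 23 of Kcnip4, so that the low sum does not describe most features of Gm20388. Tmem108, a transmembrane protein gene on chromosome 9, had -5.33, with 0.209 CPM in FOG2_OE, against 8.44 CPM in WT, and all 7 of its features were lower. Tnfsf18, the gene of a tumour necrosis factor family ligand on chromosome 1, had -4.82 with all 6 features lower. Lrp1b, a large lipoprotein receptor gene on chromosome 2, had -4.65 with 11 of 16 lower, and the long intergenic RNA gene AU019990 had -3.96 with 4 of 5 lower. Every feature was called lower in 4 of the 890 genes, and Kcnip4 is not among them because of the 4 features near its 3′ end. These ratios compare 2 fitted group levels per gene and are given in order, with no test.

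**Figure D5:**
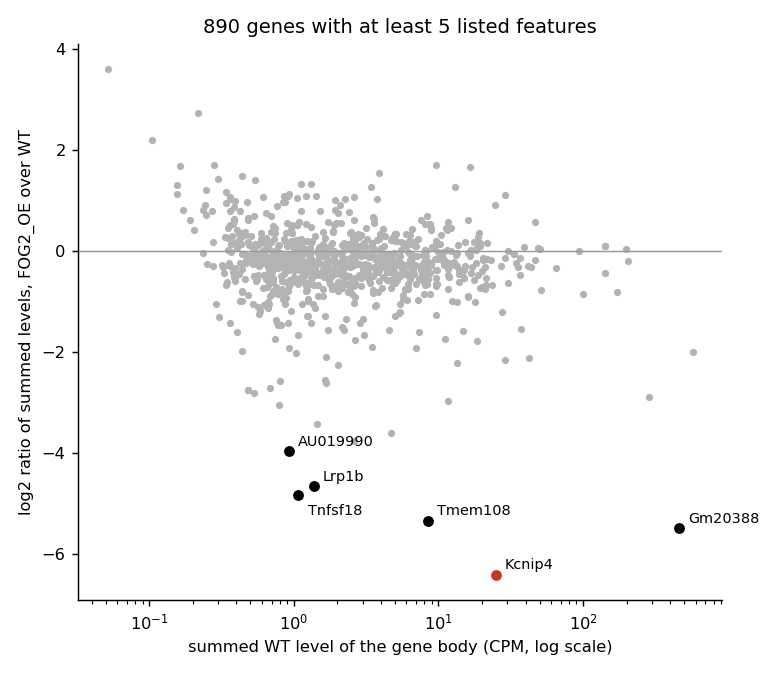
Log2 ratio of summed levels (FOG2_OE over WT) against the summed WT level (CPM, log axis) for 890 genes with at least 5 listed features, one point per gene; Kcnip4 is red and the 5 genes with the most similar ratio are black. Kcnip4 lies lowest at -6.41, with Gm20388 (-5.48) and Tmem108 (-5.33) next.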

How the data were processed

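The 6 libraries (3 FOG2_OE, 3 WT) were grouped by title and genotype. The submitters' processing notes name STAR, HTSeq (0.6.0), edgeR, deepTools and mm10, with no roles or order; settings, the assembler and the GTF are not given in the sources used here. For each feature the authors deposited a log2 ratio, a log2 abundance, a likelihood ratio as a score, and p-values before and after adjustment. The sample columns of the table, read as a deposited signal, were constant multiples of each other within a group (largest relative spread 1.8e-14), that is fitted values and not counts. The planned count tests could therefore not be run, and the authors' deposited test over 34518 features is the main result. Nothing in the labels says that replicates came from separate animals, so p-values measure only the spread between these libraries.

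Effective library sizes were solved from 788 features above 300 fitted counts, and dispersions from the likelihood ratios, which gave the implied SE. Levels are fitted values scaled to the effective library (CPM). At effective library sizes of 71164892 to 84888504, the floor of 3 counts over a group is 0.0127 CPM in FOG2_OE and 0.0129 CPM in WT. Floors and exact Clopper-Pearson intervals, on fitted reads rounded to whole reads, cover counting error only. The procedure was tested on simulated data. Positions count from 1. Features were placed on GENCODE M21. The members, lists and alternatives were chosen with earlier results of these data known. Named are the 12 most abundant members, all uncalled ones, called features of lists, gene medians from 3 features up, and the 5 nearest and 5 lowest of the genes with at least 5 features. The result of a marker list is not reported here. Alternatives were a centred scale, F distributions, a filter, a stricter threshold, other sums and another link to genes. Tools were Python 3.11.15 with pandas 2.3.3, numpy 2.4.6 and scipy 1.17.1.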

Additional observations from a re-analysis of the deposited data

How the results depend on the processing

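The count of 19 lower features in Kcnip4 was 19 with the median ratio of all features centred at 1 and with features wholly inside the gene body, 18 at an adjusted p under 0.01, and 13 over features of at least 5 fitted counts, which leaves 6 untested. Read against an F reference (10 residual degrees of freedom) in place of chi-square, the deposited ratio passed 12 features, and 7 of the 12 features at 0 in FOG2_OE did not pass. With 4 residual degrees of freedom 0 passed (adjusted p 0.583 to 0.692, all 19 at an unadjusted p under 0.05), as did 0 of all 34518 features. The log2 ratio of the interval, -7.51, became -6.34 with members at or under the floor set to 3 counts over the group, and lay between -7.51 and -7.29 under the other 4 alternatives. The counts of called features in the Kv4 complex and in the rest of the gene and its flanks were 0 under every alternative run. With the centred scale, the other potassium channel list had 13 lower and 1 higher features, and with 10 residual degrees of freedom 6 lower and 0 higher. A Dhx15 feature passed as higher on the centred scale. On that scale 4 atrial features were lower and 9 pacemaker features higher, and 2 and 4 with 10 residual degrees of freedom.

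No paired analysis was possible because the sample columns hold fitted values, which carry no deviation of a replicate from its group. For the same reason the edgeR quasi-likelihood test, DESeq2 and leaving out replicates were not run. Features at 0 in FOG2_OE give only lower bounds, and depth limits MSTRG.64108, MSTRG.64109, MSTRG.64117, MSTRG.64121 and MSTRG.64136, which hold 1 to 3 fitted reads over that group.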
